A study of Mus musculus with 12 samples.

Results

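Complement transcripts were followed in isolated mouse glomeruli at baseline and 5 days after adriamycin (ADR), through 9 genes chosen by symbol out of the 26264 gene symbols counted. They encode the 3 chains of C1q (C1qa, C1qb and C1qc), the later components C4b, C3 and Cfb, and the membrane-bound regulators Cd55, Cd46 and Cd59a. Each of the 9 symbols occurred once, and all 9 passed the filter on low counts that left 17002 genes for testing. The libraries came from 8-week-old male mice of 2 BALB/c substrains, spelled BALB/cAjcl and BALB/cByJcl in the labels and called AJcl and ByJcl here. Each substrain gave 3 untreated baseline libraries and 3 libraries taken on Day 5 after a single intravenous dose of 10 mg/kg ADR (doxorubicin), an anthracycline used to injure podocytes. The labels name no transgene or deletion in any group. Glomeruli were isolated with magnetic beads and sequenced whole, so each library was a mixture of podocytes, endothelium, mesangium and whatever tubule and blood cells came with them.

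The 12 libraries held 42198416 to 54687045 counts. The study left out AJcl Day 5 replicate 1 for low glomerular purity, and that library was also left out of the model fits here, so AJcl Day 5 had n = 2 in them. The correlations and the test of the C4a to C4b ratio used all 12 libraries. Where a value of AJcl Day 5 replicate 1 stands beside its group, it is named as that of the library left out. This library had the highest summed level of the 6 tubular markers (Slc12a1, Umod, Aqp2, Lrp2, Slc34a1 and Aqp1), 3710 CPM (counts scaled to library size, by the TMM method over the 12 libraries), but AJcl baseline replicate 3, at 3565 CPM, was close to it, and the lowest library had 339 CPM. The 8 podocyte markers summed to 9651 to 21414 CPM in every library, so the labelled tissue and its defining markers matched. Baseline and Day 5 counts were deposited in separate tables, so the ADR effect and any difference in processing between the tables cannot be told apart. Nothing in the labels ties a library to a particular animal, and p-values measure the spread between these libraries.

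Complement is a cascade of plasma and cell-surface proteins that marks targets for clearance and can lyse them. C1q starts the classical pathway by binding antibody or other ligands and, through its proteases, cleaves C4 and C2, whose fragments assemble into an enzyme that cleaves C3. Factor B, the product of Cfb, does the corresponding work in the alternative pathway, which amplifies C3 cleavage. Cells protect themselves with membrane proteins: CD55 speeds the decay of the C3-cleaving enzymes, CD46 is a cofactor for the proteolytic inactivation of C3b and C4b, and CD59 blocks the last step, the membrane attack complex. In the kidney, resident macrophages make C1q, tubular epithelium makes C3 and factor B, and podocytes rely on membrane regulators.

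Cd59a fell after ADR in ByJcl, and no other member passed the test in either substrain. A gene was called when its p from the quasi-likelihood test of edgeR, adjusted over the 17002 genes by the Benjamini-Hochberg method, was under 0.05. In ByJcl 1 of 9 members was lower on Day 5 and none was higher. Of all genes tested in that comparison 4.83% were called lower, 5.75% higher and 10.6% either way, so 1 of 9 was close to the background of calls. In AJcl 0 of 9 members passed, where 0.312% of all genes were called. At an unadjusted p under 0.05 there was 1 member, beside 9.8% of all genes, and DESeq2 called 0 members, beside 1.77%. The 9 genes had a median log2 fold change of 0.05 in AJcl and -0.29 in ByJcl, beside medians of -0.01 and 0.01 over all genes.

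**Figure D1:**
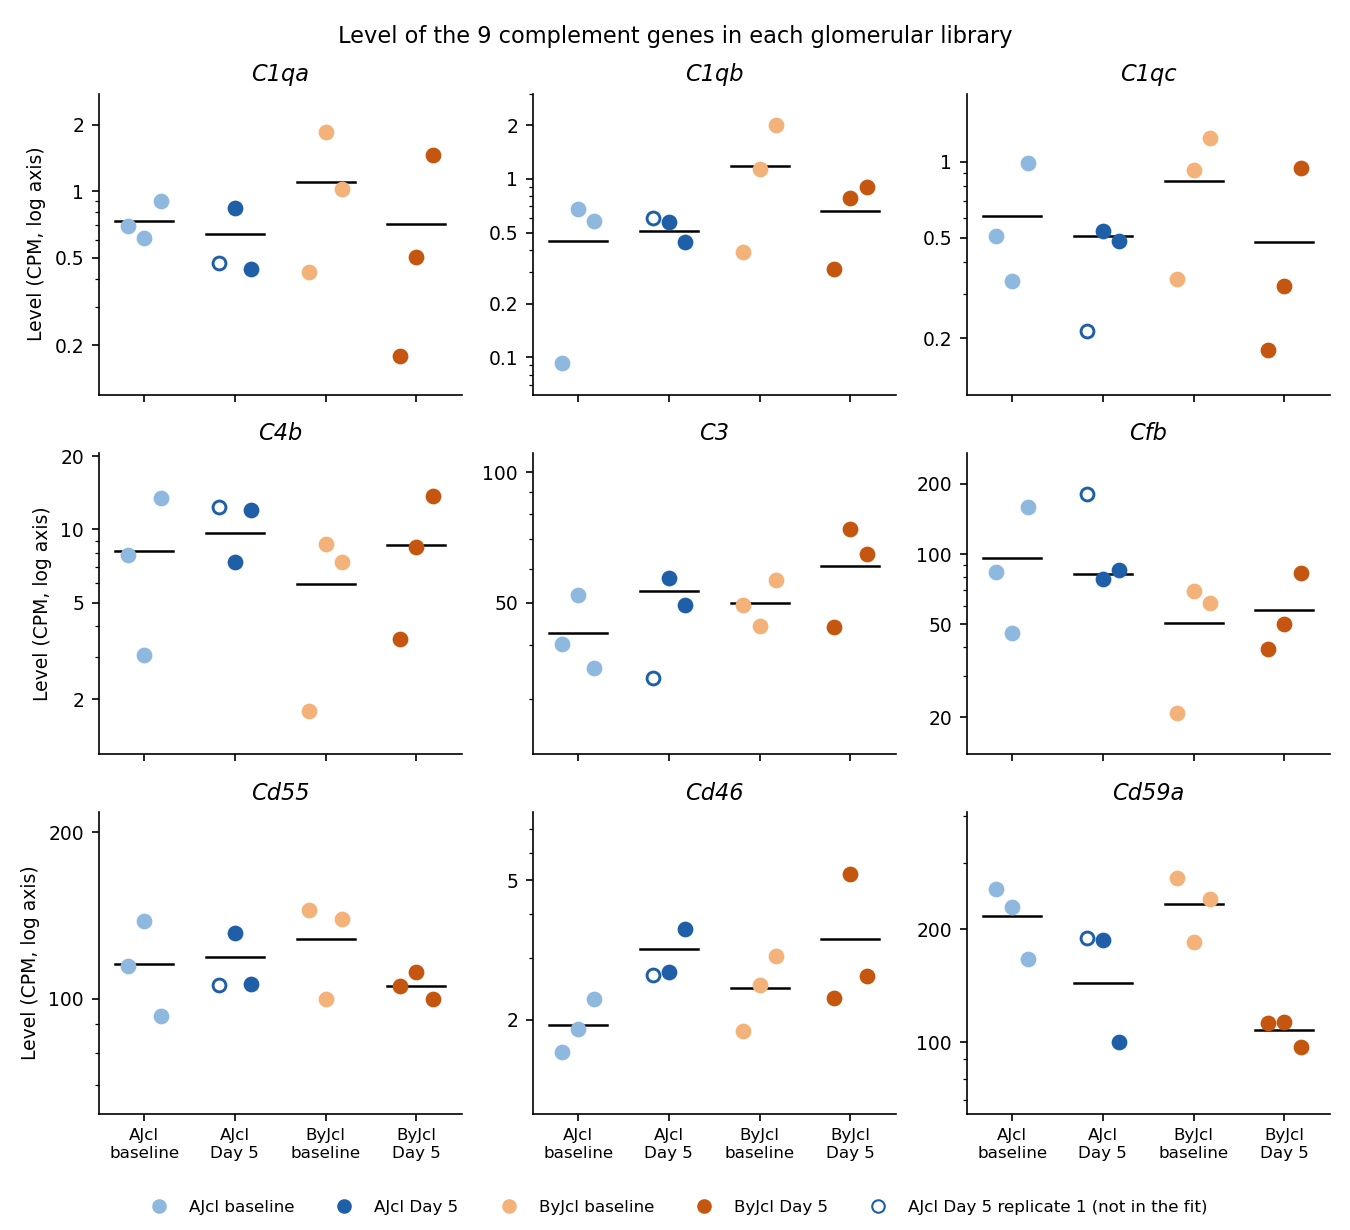
CPM of each of the 9 complement genes (log axis, a separate scale for each gene) in the 12 libraries, by substrain and time; each point is a library, the bar is the group mean of the libraries in the fit, and the open point is AJcl Day 5 replicate 1, left out of the fit. The 3 ByJcl Day 5 libraries lie below the 3 ByJcl baseline libraries for Cd59a, while the groups overlap for C1qa, C1qb, C1qc, C4b, C3, Cfb and Cd55.

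The members differed widely in level. Per kilobase of the canonical GENCODE transcript, Cd59a was highest, with a median over the 12 libraries of 109 CPM per kb and a range of 56.8 to 160. Cd55 followed at 33.4 (28.4 to 44.3), Cfb at 22.0 (6.23 to 54.1) and C3 at 9.59 CPM per kb (6.52 to 14.3). C4b had a median of 1.5 CPM per kb, C1qa 0.600, Cd46 0.412, C1qc 0.268 and C1qb 0.233. The ranges of Cd59a and Cd55 did not overlap, nor did those of C3 and C4b, whereas every other pair of neighbours in this order overlapped. Using all annotated exons as the length instead lowered the Cd59a median to 29.6 CPM per kb and put Cfb (21.5) above Cd55 (18.5). The overlap of ranges was given only for the canonical length. The glomerular isolates thus held far more transcript of 2 membrane regulators, factor B and C3 than of the C1q chains.

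The C1q chains, which start the classical pathway, had low counts. The 3 genes lie side by side on chromosome 4 (GRCm39, minus strand): C1qb at chr4:136606009-136613511, C1qc at chr4:136616466-136620376 and C1qa at chr4:136623223-136626161, and their transcripts share no window of 150 bases. Together they had 30 to 234 counts in a library, and 3 counts correspond to 0.0546 to 0.0693 CPM. C1qa stood at 0.69, 0.61 and 0.90 CPM in AJcl at baseline and at 0.84 and 0.44 on Day 5, with 0.47 in the library left out. In ByJcl it was 0.43, 1.85 and 1.02 CPM at baseline and 0.18, 0.51 and 1.45 on Day 5. Both ByJcl groups thus ran from below to above the AJcl libraries, and baseline and Day 5 overlapped in both substrains.

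C1qb was 0.09, 0.67 and 0.58 CPM in AJcl at baseline and 0.57 and 0.44 on Day 5, with 0.60 in the library left out. In ByJcl C1qb was 0.39, 1.13 and 2.00 CPM at baseline and 0.31, 0.78 and 0.90 on Day 5. Its highest values were in ByJcl baseline replicates 2 and 3, but replicate 1 of that group lay inside the AJcl range. C1qc ranged from 0.18 to 1.24 CPM over the 12 libraries, lowest in ByJcl Day 5 replicate 1 and highest in ByJcl baseline replicate 3. The fitted log2 fold changes after ADR were -0.19 (C1qa), 0.18 (C1qb) and -0.24 (C1qc) in AJcl, and -0.62, -0.83 and -0.80 in ByJcl, each with an SE between 0.66 and 0.81. In ByJcl, leaving out 1 library moved them to between -1.68 and -0.0336 (C1qa), -1.25 and -0.20 (C1qb) and -1.74 and -0.40 (C1qc). Their 95% intervals were wide, for C1qa from -1.89 to 1.52 in AJcl and from -2.12 to 0.87 in ByJcl. Counts within a group differed widely too, with 8, 22 and 68 counts of C1qa in the ByJcl Day 5 libraries. Summed CPM of the macrophage markers was 140 to 161 in AJcl baseline and 191 to 257 in ByJcl baseline libraries without overlap, 159 and 235 in the AJcl Day 5 libraries of the fit (146 in the library left out) and 216 to 348 in ByJcl on Day 5. Across the 12 libraries C1qa and this sum had a Pearson r of -0.20 (Spearman rho -0.07, permutation p 0.53 and 0.84, adjusted p 0.75 and 0.99). Without the 2 farthest libraries, AJcl baseline replicate 3 and ByJcl Day 5 replicate 1, r was 0.414, the opposite sign, and within groups it was -0.316. Mrc1 alone made up 36.5 to 74.2% of the macrophage sum. The 10 macrophage markers tested did not move together after ADR in ByJcl, where 5 had a positive and 5 a negative log2 fold change. Mrc1 (0.56) and Cd68 (1.17) rose and Cd74 (-1.17) fell. Of the markers that did not pass in edgeR, Csf1r (-0.58), Adgre1 (-0.58), Cx3cr1 (-0.98) and Fcgr1 (-0.12 in DESeq2) were negative like the C1q chains. Aif1, Lyz2 and Ctss went the other way (0.52, 0.37 and 0.49 in DESeq2). Csf1r passed in DESeq2 (adjusted p 0.03). With the tubular sum C1qa had an r of 0.486 (rho 0.413, permutation p 0.107 and 0.183, adjusted p 0.36 and 0.51), of -0.069 without the 2 farthest libraries and of 0.757 within groups. The part of macrophage or tubular content in the C1q values was otherwise not tested.

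C4b encodes the mouse complement C4, the substrate of the C1 proteases. It lies at chr17:34947354-34962912 on the minus strand in the major histocompatibility region, 65.2 kb from its paralog C4a (chr17:35028069-35042440), which encodes the sex-limited protein. Their coding sequences are 96.2% identical, with 199 differing bases in 5205 aligned, and 4.94% of the 150-base windows in annotated C4b transcripts also occur in C4a, so reads can mostly but not always be assigned between them. The coding stretch of 60 bases with the most differences shows how the copies are told apart. It lies at chr17:34954404-34954463 in C4b and chr17:35035062-35035121 in C4a (GRCm39, both read 5′ to 3′ on the minus strand), and capitals mark the 13 bases that differ.
C4b: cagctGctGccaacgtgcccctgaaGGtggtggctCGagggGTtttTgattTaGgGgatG
C4a: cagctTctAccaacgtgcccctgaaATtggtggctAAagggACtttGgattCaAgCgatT

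C4b stood at 7.83, 3.04 and 13.5 CPM in AJcl at baseline and at 7.36 and 12.0 CPM on Day 5, with 12.4 in the library left out. In ByJcl it stood at 1.79, 8.70 and 7.34 CPM at baseline and at 3.56, 8.48 and 13.8 CPM on Day 5. The libraries of each group were spread, and no comparison of C4b separated the groups. The log2 fold change after ADR was 0.28 (SE 0.71, adjusted p 0.94) in AJcl and 0.52 (SE 0.64, adjusted p 0.65) in ByJcl.

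C4b moved with the tubular markers. Per 1000 CPM of the tubular marker sum, C4b stood at 4.51 to 5.91 CPM in the ByJcl baseline libraries and at 9.36 to 10.8 CPM on Day 5, with no overlap. In AJcl the same ratio was 3.03 to 4.72 at baseline and 3.65 and 8.42 on Day 5, with 3.34 in the library left out. The tubular sum itself was 396 to 1473 CPM in ByJcl at baseline and 339 to 1275 CPM on Day 5. The share of all genes whose ratio to this sum separated in the same way was not computed. When the tubular marker level was added to the model, a choice made after the values were seen, the C4b log2 fold change in ByJcl was 0.94 and its adjusted p was 0.0437. That model called 2362 of all genes in this comparison, against 1800 without the covariate. With all 12 libraries in that model the log2 fold change was 0.91 and the adjusted p 0.0972, so the call depended on leaving out AJcl Day 5 replicate 1. Across the 12 libraries, log2 C4b and log2 tubular sum had a Pearson r of 0.783 (permutation p 0.00303, adjusted p 0.0408 over 27 relations of the 9 members with 3 marker sums) and a Spearman rho of 0.58 (p 0.0519, adjusted p 0.35). Without the 2 libraries farthest from the median sum, ByJcl baseline replicate 1 and ByJcl Day 5 replicate 1, r was 0.521, so much of the pooled relation rested on them. The r of the deviations from the group means was 0.907.

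The 2 C4 genes differed in balance between the baseline and Day 5 libraries. The ratio of C4a to C4b counts was 0.717, 1.19 and 1.03 in AJcl at baseline and 1.25, 1.08 and 1.03 in ByJcl at baseline. On Day 5 it was 0.646 and 0.404 in AJcl, with 0.595 in the library left out, and 0.667, 0.244 and 0.233 in ByJcl. All 6 Day 5 libraries, the one left out included, were below all 6 baseline libraries. Within a substrain the mean log2 ratio was lower on Day 5 by 0.838 in AJcl and by 1.73 in ByJcl. An exact two-sided permutation test gave p = 0.1 in each, the smallest that 3 libraries against 3 allow, and the contrast was chosen after its values were seen. In CPM, C4a was 2.24, 9.42 and 7.54 in ByJcl at baseline and 2.37, 2.07 and 3.21 on Day 5 (log2 fold change -1.34, SE 0.53, adjusted p 0.135), and the groups overlapped. The C4a log2 fold change in AJcl was -0.66 (SE 0.59, adjusted p 0.80).

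**Figure D2:**
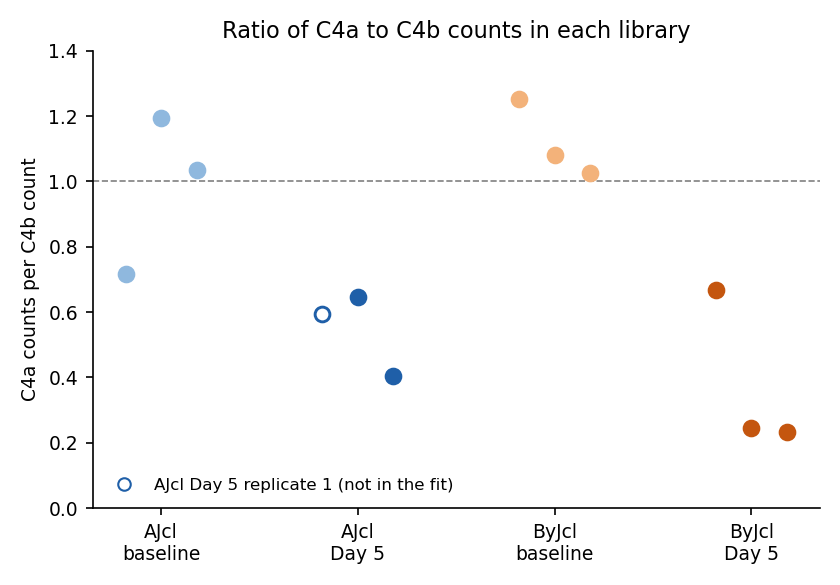
C4a counts per C4b count (linear axis) in each of the 12 libraries, by substrain and time; the dashed line marks equal counts and the open point is AJcl Day 5 replicate 1. Baseline libraries lie between 0.717 and 1.25 and Day 5 libraries between 0.233 and 0.667.

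C3 is the protein on which all activation routes converge. The gene lies at chr17:57510964-57535155 on the minus strand. C3 stood at 40.2, 52.2 and 35.3 CPM in AJcl at baseline and at 57.0 and 49.5 CPM on Day 5, with 33.6 in the library left out. In ByJcl it stood at 49.4, 44.3 and 56.6 CPM at baseline and at 43.9, 73.8 and 64.7 CPM on Day 5. Means were therefore higher on Day 5 in both substrains, but each Day 5 group overlapped its baseline. The log2 fold change was 0.33 (SE 0.23, adjusted p 0.72) in AJcl and 0.27 (SE 0.20, adjusted p 0.44) in ByJcl, with 95% intervals of -0.17 to 0.82 and -0.18 to 0.71. These intervals leave room for a rise of less than 2-fold and for no change.

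Cfb, which encodes factor B, varied more than any other well-expressed member. It lies at chr17:35074852-35081559 on the minus strand, 32.4 kb from C4a and 18 bases from C2, and overlaps 6172 bases of a same-strand protein-coding model, Gm20547, and 3865 bases of Nelfe on the opposite strand, so its counts depend on how reads over shared exons were assigned. Cfb stood at 83.4, 46.1 and 159 CPM in AJcl at baseline and at 78.0 and 85.7 on Day 5, and reached 181 CPM in the library left out. In ByJcl Cfb stood at 20.8, 69.4 and 61.5 CPM at baseline and at 39.2, 50.3 and 83.3 on Day 5. The 2 highest values belonged to the 2 libraries with the most tubular marker RNA. The log2 fold change after ADR was -0.21 (SE 0.53, adjusted p 0.94) in AJcl, where it was 0.26 with all 12 libraries, and 0.18 (SE 0.48, adjusted p 0.85) in ByJcl.

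Across the 12 libraries, log2 Cfb followed the log2 tubular sum with a Pearson r of 0.931 (permutation p 5e-05, adjusted p 0.00135) and a Spearman rho of 0.874 (p 0.00047, adjusted p 0.0127). The relation held without the 2 farthest libraries (r 0.947) and within groups (r of deviations from the group means 0.94). Per 1000 CPM of the tubular sum, Cfb was 44.6 to 50.2 CPM in AJcl baseline libraries, 45.7 to 52.6 in ByJcl baseline libraries and 38.7 and 60.04 in the AJcl Day 5 libraries of the fit, and 48.8 in the library left out. ByJcl Day 5 libraries were at 55.5, 65.3 and 116, the last of these in replicate 1, which had the lowest tubular sum of all. Baseline Cfb levels were thus nearly proportional to tubular marker RNA, and the ratio lay above every baseline library in all 3 ByJcl Day 5 libraries. The share of all genes for which this holds was not computed. With the tubular level in the model the Cfb log2 fold change in ByJcl was 0.59 and did not pass (adjusted p 0.0741).

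**Figure D3:**
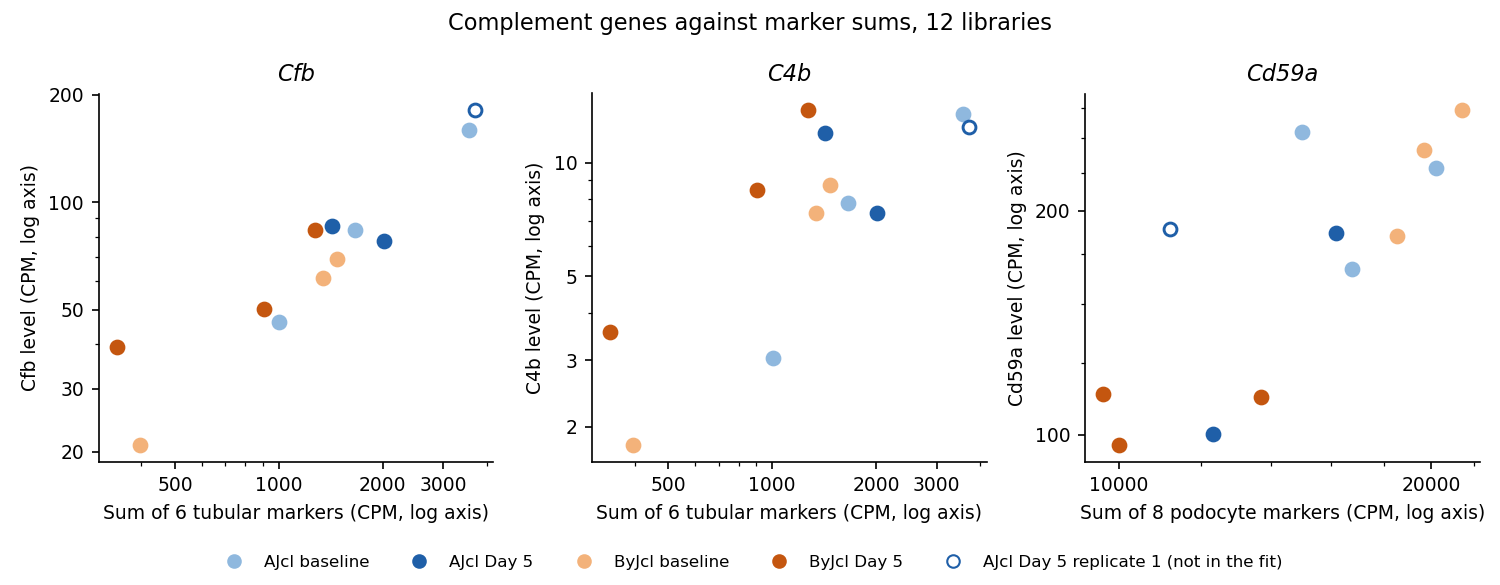
Level of Cfb and C4b against the summed level of 6 tubular markers, and of Cd59a against the summed level of 8 podocyte markers, in the 12 libraries (CPM, all axes logarithmic); the open point is AJcl Day 5 replicate 1. Cfb rises along the tubular sum from 20.8 to 181 CPM, and the 3 ByJcl Day 5 libraries are low on both axes for Cd59a and the podocyte sum.

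Cd59a, the regulator that blocks the membrane attack complex, was the member that fell. The gene lies at chr2:103926132-103947029 on the plus strand, 4.6 kb downstream of its paralog Cd59b (chr2:103895758-103921538), with 85.2% identical coding bases and 1.51% of its 150-base transcript windows shared. RefSeq promoter sequences were matched for 6 of the 9 members. That of Cd59a is shown because Cd59a is the member that was called, as the 236 bases before its annotated start (chr2:103925896-103926131, GRCm39, plus strand, matched from the RefSeq entry on GRCm38.p6). Capitals mark a match to GAAA, any 2 bases and GAAA, the letters of an interferon response element.
Cd59a: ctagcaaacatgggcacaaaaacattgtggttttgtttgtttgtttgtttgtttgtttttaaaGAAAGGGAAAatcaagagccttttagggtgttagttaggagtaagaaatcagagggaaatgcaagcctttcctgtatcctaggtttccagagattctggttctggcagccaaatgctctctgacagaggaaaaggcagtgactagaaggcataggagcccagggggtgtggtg
On either strand, 2.98% of the 32851 promoter entries hold a match in the 250 bases before the start, and among the 6 members matched only Cd59a did. GGG, any 3 bases and TTCC, the letters of an NF-kB site (4.65% of entries), and TTC, any 3 bases and GAA, those of an interferon-gamma activated site (7.02%), matched in none of the 6, and a match is a description of letters only.

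Cd59a stood at 273, 185 and 241 CPM in ByJcl at baseline and at 112, 113 and 96.8 on Day 5. The means were 233 ± 44.5 (SD, n = 3) and 107.5 ± 9.27 (SD, n = 3), every Day 5 library was below every baseline library, and the Day 5 libraries differed little from each other. The log2 fold change was -1.13 (SE 0.23, 95% interval -1.64 to -0.62, adjusted p 0.0132), and Cd59a was called in all 21 other settings tried, with adjusted p values of 6.7e-05 to 0.0488. Non-overlapping libraries with Day 5 lower were seen for 15.2% of all genes in this comparison.

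In AJcl Cd59a stood at 255, 228 and 167 CPM at baseline and at 187 and 100 on Day 5, with 189 in the library left out. Replicate 3 was as low as the ByJcl Day 5 libraries, while replicate 2 lay inside the baseline range. The log2 fold change was -0.59 (SE 0.26, p 0.0443, adjusted p 0.49). The effects in the substrains differed by -0.54 (SE 0.34, 95% interval -1.29 to 0.22, adjusted p 0.69), so a different ADR effect on Cd59a in ByJcl was not shown. Leaving out 1 library moved the AJcl effect to between -1.11 and -0.23 and the difference to between -0.89 and -0.0141. On Day 5 itself the ByJcl-minus-AJcl difference was -0.41 (SE 0.26, adjusted p 0.50).

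Cd59b, the paralog, had far fewer counts and moved alongside. It stood at 8.48, 5.33 and 8.00 CPM in ByJcl at baseline and at 4.50, 3.49 and 3.42 on Day 5, without overlap (log2 fold change -0.95, SE 0.30, adjusted p 0.0701). The ratio of Cd59a to Cd59b counts was 24.9 to 32.5 on Day 5 and 30.1 to 34.7 at baseline in ByJcl. Podocyte marker RNA was also lower in the same libraries. In this comparison 7 of 8 podocyte markers fell, by 0.92 (Podxl) to 1.54 (Synpo) on the log2 scale, and Cdkn1c rose by 1.01. The podocyte sum was 18532 to 21414 CPM in ByJcl baseline libraries and 9651 to 13712 CPM on Day 5, and Cd59a per 1000 CPM of that sum was 9.98 to 12.7 and 8.19 to 11.7, which overlapped. That sum includes Cdkn1c, at 1286, 1103 and 1572 CPM in the ByJcl baseline libraries and 3146, 2721 and 2183 CPM on Day 5. The ratio thus depends on a marker that rose, and it was not computed without Cdkn1c. The part of podocyte RNA in the fall of Cd59a was not tested further. In bulk RNA, fewer cells of a type and less RNA per cell cannot be told apart. Across the 12 libraries log2 Cd59a and log2 podocyte sum had a Pearson r of 0.777 (permutation p 0.00453, adjusted p 0.0408), a Spearman rho of 0.685 (p 0.0172, adjusted p 0.23) and 0.641 without the 2 farthest libraries, whereas within groups r was 0.221, so the pooled relation did not hold within groups.

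Cd55 and Cd46, the regulators that act on C3 cleavage, did not pass in any comparison. Cd55 (chr1:130366469-130390926, minus strand) was the most even member, at 93.1 to 145 CPM over all 12 libraries. It stood at 145, 99.9 and 140 CPM in ByJcl at baseline and at 105, 112 and 100 on Day 5 (log2 fold change -0.29, SE 0.17, adjusted p 0.32), and AJcl values of 93.1 to 139 CPM at baseline held both Day 5 libraries, 131 and 107 CPM, and the library left out, 106 CPM (log2 fold change 0.05, SE 0.19, adjusted p 0.96). Cd46, which in the mouse is expressed mainly in testis, was low (chr1:194719134-194774561, minus strand). Cd46 stood at 1.62, 1.88 and 2.29 CPM in AJcl at baseline and at 2.74 and 3.62 on Day 5, with 2.68 in the library left out. These did not overlap, but the log2 fold change of 0.74 (SE 0.37) did not pass (adjusted p 0.56), and 13.4% of all genes were higher on Day 5 without overlap. In ByJcl Cd46 stood at 1.85, 2.52 and 3.04 CPM at baseline and at 2.31, 5.21 and 2.67 on Day 5 (log2 fold change 0.44, SE 0.33, adjusted p 0.43), so its higher mean came from replicate 2.

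Cd55b, the neighbouring paralog of Cd55 (chr1:130316263-130350815, 91.7% identical coding bases, 4.64% of its windows shared with Cd55), was near 1 CPM and differed in direction between the substrains. In AJcl it was 0.49, 0.61 and 0.60 CPM at baseline and 1.08 and 0.95 on Day 5, but 0.51 in the library left out. In ByJcl Cd55b was 1.03, 1.07 and 1.07 CPM at baseline and 0.85, 0.62 and 0.66 on Day 5. The log2 fold changes were 0.85 (SE 0.32, adjusted p 0.39) and -0.59 (SE 0.29, adjusted p 0.22), and their difference, -1.44 (SE 0.44, p 0.00705), did not pass over all genes (adjusted p 0.62).

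Between substrains, the question was whether complement genes differ in untreated glomeruli or in the response to ADR. At baseline 0 of 9 members were called, where 0.159% of all genes were. At an unadjusted p under 0.05 there were 0 members, beside 8.34% of all genes, and DESeq2 called 0 members, beside 0.594%. The fitted ByJcl-minus-AJcl differences at baseline ran from -0.89 for Cfb (SE 0.48, adjusted p 0.62) to 1.41 for C1qb (SE 0.71, adjusted p 0.61), with C3 at 0.26 (SE 0.20). On Day 5 the test called 0 of 9, beside 0.165% of all genes, with 0 at an unadjusted p under 0.05, beside 14%, and 0 by DESeq2, beside 3.15%. The differences on Day 5 ran from -0.50 for Cfb (SE 0.53) to 0.39 for C1qb (SE 0.81), with C3 at 0.20 (SE 0.23). Leaving out 1 library moved the baseline difference to between -1.21 and -0.35 for Cfb, 0.78 and 1.85 for C1qb and 0.13 and 0.45 for C3, and that on Day 5 to between -0.87 and -0.29 for Cfb, 0.10 and 0.72 for C1qb and 0.0358 and 0.38 for C3. With the tubular level in the model the Cfb difference was -0.17 at baseline and 0.34, the opposite sign, on Day 5. The tubular sum was 1004 to 3565 CPM in AJcl baseline libraries and 396 to 1473 in ByJcl baseline libraries. The test of a different ADR effect called 0 of 9 members, with 0 at an unadjusted p under 0.05, beside 8.02% of all genes, and called 0 of all genes in edgeR and 22 in DESeq2, which called 0 members. Differences in effect ran from -1.02 for C1qb (SE 1.06) to 0.38 for Cfb (SE 0.71).

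**Figure D4:**
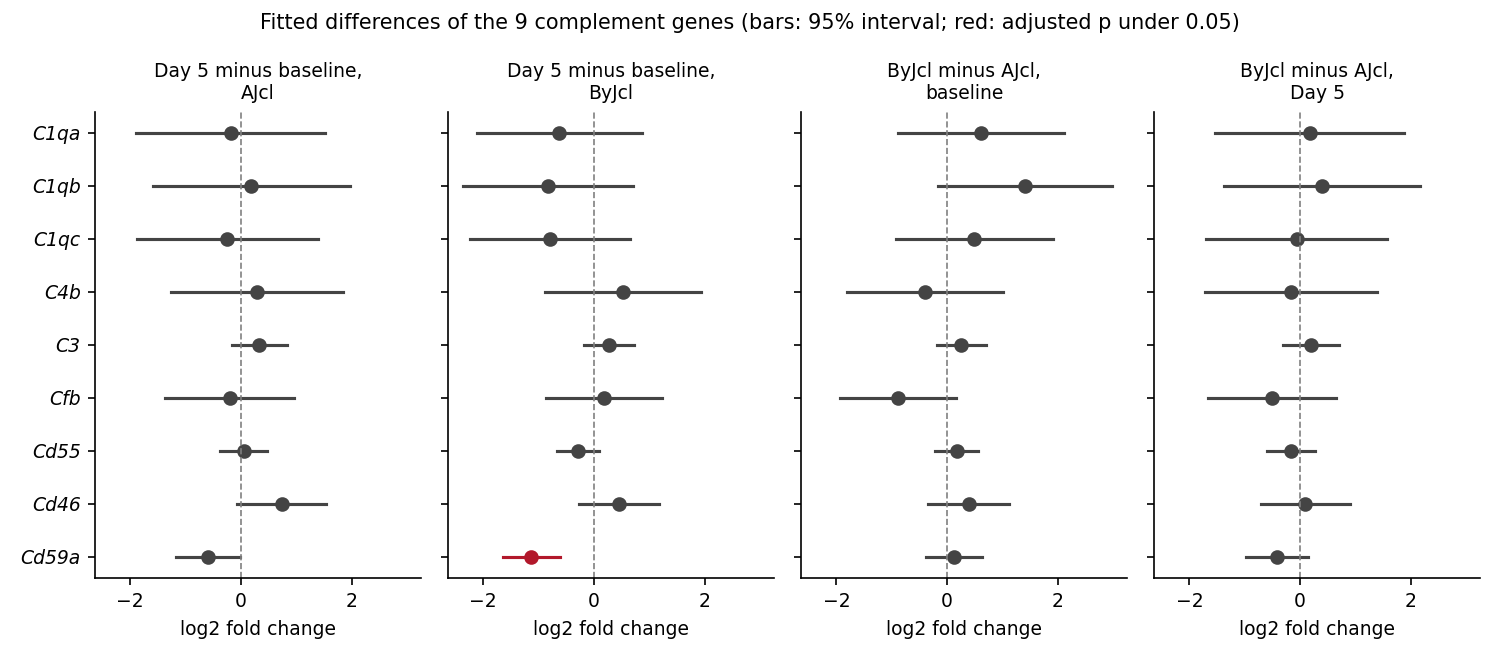
Fitted log2 fold changes of the 9 complement genes in 4 comparisons; points are estimates, bars their 95% intervals, and red marks an adjusted p under 0.05. Only Cd59a in ByJcl, at -1.13, is marked, and the C1q chains have the widest intervals together with C4b and Cfb.

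The rest of the pathway was counted in the same way. Of 53 complement genes listed, 44 were outside the members and 39 of these were tested. Fcnb, Colec10, C8b, Cpn2 and Vsig4 were not tested, and none of them exceeded 0.322 CPM in a library. After ADR in ByJcl, 3 of the 39 were called higher and 0 lower, beside 5.75% and 4.83% of all genes. The 3 include C6, which was tested only through the group in which it was high, so its call says nothing about the list, and without it the count is 2. At an unadjusted p under 0.05, 8 were higher and 5 lower, beside 14% and 12.8% of all genes. Of the 8, 2 were terminal pathway genes, C6 among them. Hc, another gene of that pathway, also passed the filter through the ByJcl Day 5 libraries (10, 12 and 14 counts), so a rise of C6 or Hc says nothing about the list. DESeq2 called 6 of the 39 higher (Thbd, Masp1, C6, C1s1, C1ra and Serping1) and 3 lower (Cd59b, C4a and Cfp), beside 8.95% and 6.9% of all genes. Cfp, properdin, was named after its values were seen. The 39 had a median log2 fold change of 0.24 beside 0.01 over all genes. In AJcl 0 of 39 were called, beside 0.312% of all genes, with 6 higher and 0 lower at an unadjusted p under 0.05, beside 6.34% and 3.46%, and a median of 0.05. Of those 6, 3 were the terminal pathway genes C6, C7 and Hc, with 0 to 2 counts in each AJcl baseline library. These 3 passed the filter through Day 5 libraries, where they were high, so they say nothing about the list. DESeq2 also called 0 of the 39 in AJcl. Both substrain comparisons and the test of a different ADR effect called 0 of the 39 in edgeR, with 5 at an unadjusted p under 0.05 at baseline, 6 on Day 5 and 1 in the last, beside 8.34%, 14% and 8.02% of all genes. DESeq2 called 1 of them, Clu, lower in ByJcl at baseline, beside 0.594% of all genes, and 0 in the other two comparisons. Clu, clusterin, stood at 50.2, 41.7 and 69.6 CPM in AJcl at baseline and at 27.2, 33.2 and 34.1 in ByJcl, without overlap (log2 difference -0.74, SE 0.17, adjusted p 0.27, and 0.0206 in DESeq2). The 2 libraries with the highest tubular sums also had the highest Clu, AJcl baseline replicate 3 and the library left out (73.5 CPM). All 6 tubular markers had negative differences at baseline (median -0.93). The part of tubular RNA in the Clu difference was not tested.

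Of the genes called in ByJcl, Thbd and Masp1 rose. Thbd, thrombomodulin, an endothelial protein that restrains coagulation and complement, stood at 355, 350 and 319 CPM at baseline and at 487, 828 and 498 on Day 5 (log2 fold change 0.81, SE 0.20, adjusted p 0.0291). Masp1, a protease of the lectin pathway, stood at 2.67, 2.54 and 3.10 CPM at baseline and at 4.21, 10.3 and 5.81 on Day 5 (log2 fold change 1.28, SE 0.35, adjusted p 0.0432). Every ByJcl Day 5 library was above every ByJcl baseline library for both, with replicate 2 highest, and 18% of all genes were higher on Day 5 in ByJcl without overlap. In AJcl, where it was not called, Masp1 stood at 1.99, 3.80 and 3.21 CPM at baseline and at 4.88 and 7.99 on Day 5. The library left out had 1.89 CPM, and 13.4% of all genes were higher on Day 5 in AJcl without overlap. C6, a subunit of the membrane attack complex, had 2 counts over the 3 ByJcl baseline libraries and 38 over the 3 on Day 5, a library-size-adjusted ratio of 21.0 with an exact 95% counting interval of 5.42 to 179. C6 passed the filter on low counts through the ByJcl Day 5 libraries, where it was high (8, 20 and 10 counts), so a difference was built into its being tested, and its adjusted p of 0.0475 and the ratio are given as a description. Every C6 count was even, and if each read of a pair was counted these are 1 and 19 fragments, with an interval of 3.34 to 872. In AJcl C6 had 0 counts at baseline and 8 and 4 in the Day 5 libraries of the fit, but 0 in the library left out, and was not called (adjusted p 0.28). Leaving out any 1 ByJcl baseline library ended the calls of Thbd (highest adjusted p 0.0916), Masp1 (0.137) and C6 (0.125), and leaving out ByJcl Day 5 replicate 2 ended those of Thbd (0.0906) and Masp1 (0.179). Masp1 also lost its call without ByJcl Day 5 replicate 3 or AJcl baseline replicate 3 (0.0526 each), and C6 without ByJcl Day 5 replicate 1 (0.0588) or AJcl Day 5 replicate 2 (0.0721) or 3 (0.0689).

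Among the abundant genes outside the members were inhibitors and the C1 proteases. Cr1l, which encodes Crry, the main rodent cell-surface inhibitor of C3 cleavage, averaged 111 CPM, Serping1, the C1 inhibitor, 85.4 CPM and Clu 41.0 CPM. The protease genes C1s1 and C1ra averaged 93.0 and 32.8 CPM and Cd93, an endothelial surface receptor, 90.3 CPM. In ByJcl, C1ra stood at 32.7, 29.7 and 28.0 CPM at baseline and at 59.0, 37.4 and 42.7 on Day 5, and its log2 fold change of 0.61 (SE 0.20) did not pass (adjusted p 0.0831; 0.0289 in DESeq2). C1s1 (0.44, SE 0.14, adjusted p 0.0599; 0.0186 in DESeq2), Serping1 (0.35, SE 0.12, adjusted p 0.0831; 0.0379 in DESeq2) and Cr1l (0.23, SE 0.10, adjusted p 0.153) were likewise higher in every Day 5 library than at baseline without passing in edgeR, whereas the log2 fold changes of Cd93 (0.19) and Clu (-0.21) came with overlapping libraries. The C1 proteases were thus well measured in the same libraries in which the C1q chains were scarce. The sum of the mesangial markers was 2322 to 2675 CPM in ByJcl at baseline and 2797 to 3620 CPM on Day 5. Of its 7 markers 2 were called higher in ByJcl, beside 5.75% of all genes, and 2 had negative log2 fold changes. The part of mesangial RNA in these values was not tested.

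Interferon and acute-phase genes, among which C3, C4b and Cfb are often counted as inducible, were compared in the same libraries. Of 11 tested, 9 rose after ADR in ByJcl, beside 5.75% of all genes called higher, among them Cxcl10 (log2 fold change 4.19) and Gbp2 (2.28). In AJcl 1 of the 11, Cxcl10, rose. The 11 genes had a median log2 fold change of 1.61 in AJcl, against 1.52 in ByJcl. In each substrain 10 of the 11 were higher at an unadjusted p under 0.05, beside 6.34% of all genes in AJcl and 14% in ByJcl, and the test of a different ADR effect called 0 of the 11 (0 at an unadjusted p under 0.05). The log2 fold changes of the members in ByJcl were 0.27 for C3, 0.52 for C4b and 0.18 for Cfb, none of them called.

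For 6 members the tested genes most like them over the 12 libraries were sought, by the root mean square difference of mean-centred log2(CPM + 1). For Cfb they were Pcx (0.145), Slc25a13 (0.149) and Slc5a11 (0.165), and for C4b Nr1h4 (0.297), Pcx (0.31) and Dhtkd1 (0.314), beside standard deviations of 0.796 and 0.744 for Cfb and C4b themselves. Pcx, pyruvate carboxylase, was thus close to both. For Cd59a they were Adra2c (0.145), St6galnac6 (0.175) and Cd59b (0.183), beside a standard deviation of 0.516. For C1qa they were Chst11 (0.19), C1qc (0.194) and Smad6 (0.202) beside 0.342. C3 was nearest to Fsd1l (0.135), Spon1 (0.141) and Zfp945 (0.148) beside 0.317, and Cd55 to Zfp983 (0.073), Cldn20 (0.087) and Spdya (0.099) beside 0.206. The small differences for C1qa and Cd55 came with small spreads of those genes.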

How the data were processed

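Poly(A) RNA of bead-isolated glomeruli was sequenced in 12 libraries (4 groups of 3). Whole-number counts per gene symbol were deposited by the authors, not normalized; the submitters' processing notes name FastQC, Trimmomatic, STAR, featureCounts and GRCm39. The annotation, strand setting and whether reads or fragments were counted are not given in the sources used here, and 77.1 to 82.8% of counts from 1 to 49 were even. Groups came from the labels. The members and lists were chosen with earlier results of these data known.

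Counts were fitted with edgeR 4.0.16 (R 4.3.3) by quasi-likelihood, with TMM scaling, the expression filter by group and 1 term per group, over 11 libraries without AJcl Day 5 replicate 1 (7 residual degrees of freedom). Two-sided p values were adjusted over 17002 genes. Alternatives were DESeq2 1.42.0, RLE scaling, other filters, all 12 libraries, a replicate block, halved counts, only the compared groups and leaving out each library, and, added later, the tubular marker level. Correlations used log2(CPM + 0.1) and 100000 permutations. The code was tested on simulated data. Text names the members, their paralogs, other complement genes called in any comparison or among the 8 highest in mean CPM, and the 3 nearest genes of 6 members; list genes are named beside a result. Some genes that this rule covers are not reported here. Coordinates and lengths are from GENCODE vM39 (GRCm39). Intervals and floors cover counting error only. The deposited tables had 0 unused sample columns.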

Additional observations from a re-analysis of the deposited data

Results flagged for a closer look

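Cd55b was singled out because its ADR effect differed between the substrains by -1.44 on the log2 scale in the test of the difference itself (p 0.00705 before adjustment, 0.62 after). Every AJcl Day 5 library of the fit was above every AJcl baseline library, and every ByJcl Day 5 library was below every ByJcl baseline library. Over all genes, 13.4% were higher without overlap in AJcl, 15.2% were lower without overlap in ByJcl, and 8.02% had an unadjusted p under 0.05 for the difference. AJcl Day 5 replicate 1, outside the fit, had 0.51 CPM of Cd55b, inside the AJcl baseline range.

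AJcl Day 5 replicate 1, which was not used in the model fits, had 181 CPM of Cfb, above the 3 AJcl baseline libraries. It also had 2.68 CPM of Cd46, again above all 3.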

How the results depend on the processing

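The count of called members was within 1.5 times of its reported value under every alternative in all 5 comparisons, except that 2 members, Cd59a and C4b, were called in ByJcl after ADR with the tubular marker level as covariate. That setting called 2362 of all genes in ByJcl after ADR, in place of 1800. Cd59a remained called in ByJcl in all 21 settings. Of the other complement genes DESeq2 called 6 higher and 3 lower in ByJcl in place of 3 and 0, adding C1s1, C1ra, Serping1, Cd59b (adjusted p 0.0226), C4a (0.0482) and Cfp (0.0267, against 0.0631 in edgeR); Cd59b was also called with only the compared groups (0.0496), with the tubular covariate (0.0379) and without AJcl Day 5 replicate 2 (0.0238) or 3 (0.023). C6 lost its call without a filter (0.083) and Masp1 with all 12 libraries (0.123) and with only the compared groups (0.0543).

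Over all genes the settings called 680 to 2694 in ByJcl and 11 to 301 in AJcl after ADR, 12 to 101 between substrains at baseline and 6 to 535 on Day 5, DESeq2 giving the highest number in each.

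Some small changes, none of them called, turned sign, and the cause was not tested. In AJcl after ADR, Cfb was 0.26 and Cd55 -0.0113 with all 12 libraries, and Cfb was 0.0444 with the tubular covariate and 0.12 with that covariate over all 12 libraries. The Cfb difference on Day 5 was 0.34 and 0.30 under those covariate models, and the Cfb difference in effect was -0.0674 with all 12 libraries. Leaving out each library in turn gave, in AJcl after ADR, -0.72 to 0.18 for C1qa, -0.30 to 0.62 for C1qb, -0.52 to 0.26 for C1qc, -0.15 to 0.84 for C4b, -0.53 to 0.34 for Cfb, -0.11 to 0.22 for Cd55, -0.99 to 0.0574 for C4a and -1.25 to 0.0462 for Cd59b. In ByJcl it gave -0.19 to 0.47 for Cfb and -0.0023 to 0.67 for Cd46; for Cd59a it gave -0.78 to 0.10 in the substrain difference on Day 5, and for the Cfb difference in effect -0.16 to 0.71.

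Of 15 same-numbered pairs of libraries 5 had correlated deviations over 0.1 (range -0.391 to 0.53). Differently numbered pairs were not compared, so this check cannot decide whether replicate numbers pair the libraries. With the replicate block, 1592 genes in place of 1800 were called in ByJcl after ADR and 26 in place of 53 in AJcl, the counts of called members were unchanged, C6 was not called (0.0554), and C1qb and C4b in AJcl were -0.14 and -0.13.

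Depth limits the C1q chains (30 to 234 counts a library together) and C6; the interaction could not be run with only the compared groups, since it uses all 4.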
